A study of Homo sapiens with 12 samples.

Results

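Small nucleolar RNA (snoRNA) and small Cajal body RNA (scaRNA) were described in extracellular vesicles (EV) released by human induced pluripotent stem cells (hiPSC) and by 3 later stages of their differentiation into cardiomyocytes. The members were selected on their counts: a row of the gencode table annotated as snoRNA or scaRNA entered where its counts summed to at least 12 over the 12 libraries. By that rule 220 of 315 snoRNA and scaRNA rows were members, out of 39666 gencode rows in all, and the 95 rows below the minimum held 0.569% of the counts of both biotypes. By symbol, 118 members were SNORD (box C/D), 61 were SNORA (box H/ACA), 14 were SCARNA and 27 carried only an Rfam-style identifier. Just inside the minimum stood SNORD34, SNORA23 and SNORA7A with 12.0 counts each, and just outside it SCARNA16 with 11.58, SNORA64 with 11.4 and SNORD114 with 11.0 counts, level with SNORA79B.

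All libraries came from 1 hiPSC line, iPS(IMR90)-4, and each of the 4 EV groups had 3 libraries from independent cultures. hiPSC-EV were collected from expansion medium at day 0 after 24 h of conditioning, and CPC-EV, from cardiac progenitor cells, from differentiation medium at day 6 after 72 h. CMi-EV, from immature cardiomyocytes grown as aggregates in maintenance medium, were collected at day 15 after 48 h, and CMm-EV, from cardiomyocyte aggregates kept in a glucose-free maturation medium with galactose and fatty acids, at day 35 after 48 h. Stage and medium change together at every step. Conditioning time also changes at each step up to CMi-EV, and culture format only between CPC-EV and CMi-EV, when monolayers were aggregated. The parts of what changes together at a step cannot be told apart. Fragments of cardiomyocyte transcripts summed to between 11.4 and 87.8 CPM (counts scaled to the gencode counts of their library) in the hiPSC-EV libraries and to between 7635 and 20710 CPM in CMm-EV. Of the 16 listed genes, 15 had a count in some library, 9 were at 0 in hiPSC-EV and 3 in CMm-EV. Listed pluripotency genes summed to 556 to 847 CPM in hiPSC-EV, 369 to 660 in CPC-EV and 3.40 to 55.8 in CMm-EV. Listed endoderm and liver genes reached 214 CPM in CMi-EV, and smooth muscle and fibroblast genes 429 CPM in CMm-EV. Cardiomyocyte genes summed to 1271 to 1967 CPM in CPC-EV and 12600 to 14180 in CMi-EV. Listed cardiac mesoderm and progenitor genes summed to 17.6 to 37.4 CPM in hiPSC-EV and 76.1 to 429 in CPC-EV. They stood at 197 to 234 CPM in CMi-EV and 21.7 to 228 in CMm-EV, so they did not set CPC-EV apart from the later stages. The labels and the cardiomyocyte and pluripotency markers did not conflict, although the pluripotency ranges of hiPSC-EV and CPC-EV overlapped.

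snoRNA are short nuclear RNA that mostly reside in the nucleolus and are mostly cut out of introns of host genes. Box C/D snoRNA guide fibrillarin to methylate riboses, and box H/ACA snoRNA guide dyskerin to turn uridine into pseudouridine, in both cases mainly in ribosomal RNA. A few, among them U3 (the SNORD3 copies), U8 (SNORD118) and U17 (SNORA73), are needed to cut the ribosomal RNA precursor, and scaRNA guide the same modifications in spliceosomal RNA within Cajal bodies. In EV these RNA are read as fragments by a small RNA library protocol, so a count is a fragment and not a whole RNA.

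Sequences are shown for the U3 copy that stands for the most abundant members and for members that passed a test below and have a single locus, 1 or more for each class. They were read from GENCODE release 44 on hg38, where 193 of the 220 members were found by symbol, 176 of them at a single locus. Capitals mark matches of letters on the strand of the RNA. In SNORD and SCARNA sequences these are GATGA, the core of box C, within the first 25 bases, and CTGA, the letters of box D, within the last 25. In SNORA and SCARNA sequences they are ACA within the last 6 bases. SCARNA3 holds CTGA and ACA but no GATGA, and a match of CTGA alone does not show a box D. Of the SCARNA members with a single locus, 61.5% held CTGA and 38.5% GATGA in these windows.
SNORD3A: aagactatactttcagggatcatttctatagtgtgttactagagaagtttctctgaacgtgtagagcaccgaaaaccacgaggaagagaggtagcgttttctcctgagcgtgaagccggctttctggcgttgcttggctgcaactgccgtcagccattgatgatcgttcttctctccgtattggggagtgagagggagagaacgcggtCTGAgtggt
SNORD82: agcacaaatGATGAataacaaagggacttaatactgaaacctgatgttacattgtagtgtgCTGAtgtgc
SNORD93: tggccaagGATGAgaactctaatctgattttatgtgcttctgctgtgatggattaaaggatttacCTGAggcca
SNORD60: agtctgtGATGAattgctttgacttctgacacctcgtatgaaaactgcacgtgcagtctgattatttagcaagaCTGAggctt
SNORD26: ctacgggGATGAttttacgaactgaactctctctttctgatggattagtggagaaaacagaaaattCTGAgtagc
SNORD12B: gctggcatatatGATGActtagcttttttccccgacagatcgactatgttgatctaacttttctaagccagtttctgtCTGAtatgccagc
SNORA58B: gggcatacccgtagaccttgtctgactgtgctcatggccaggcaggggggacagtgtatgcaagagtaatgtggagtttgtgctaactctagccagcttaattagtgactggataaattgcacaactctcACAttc
SCARNA3: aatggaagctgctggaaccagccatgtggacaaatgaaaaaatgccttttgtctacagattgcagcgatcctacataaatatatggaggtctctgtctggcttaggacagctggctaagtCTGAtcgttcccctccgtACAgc
SCARNA5: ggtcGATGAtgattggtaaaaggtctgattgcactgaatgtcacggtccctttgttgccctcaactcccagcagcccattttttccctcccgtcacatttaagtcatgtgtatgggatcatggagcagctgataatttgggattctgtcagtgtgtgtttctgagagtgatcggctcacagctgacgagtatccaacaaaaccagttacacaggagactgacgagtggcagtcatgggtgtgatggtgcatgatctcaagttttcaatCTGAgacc

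The SNORD3A stretch is the first 217 bases of that gene, chr17:19188016-19188232 on the plus strand, and overlaps no host gene. SNORD82 (chr2:231460371-231460440, minus strand) lies in an intron of NCL, the gene of nucleolin, and SNORD93 (chr7:22856613-22856686, plus strand) in SNHG26 outside its exons. SNORD60 (chr16:2155023-2155105, minus strand) and SNORD26 (chr11:62855292-62855366, minus strand) lie within annotated exons of SNHG19 and SNHG1, long non-coding hosts. SNORD12B (chr20:49280319-49280409, plus strand) lies in an intron of ZFAS1, SNORA58B (chr1:154259727-154259862, plus strand) in an intron of UBAP2L, SCARNA3 (chr1:175968398-175968540, minus strand) in an intron of COP1 and SCARNA5 (chr2:233275727-233276002, plus strand) in an intron of ATG16L1. Of the SNORD members with a single locus, 71.3% (77 members) held both GATGA and CTGA in these windows, against 68.1% of all 313 SNORD transcripts of the annotation and 1.82% of the 55 SNORA members with a single locus. ACA stood within the last 6 bases of 89.1% of those SNORA members, of 81.8% of all 214 annotated SNORA transcripts and of 8.33% of the SNORD members. Median annotated lengths were 79.0 bases for SNORD, 133.0 for SNORA and 265.0 for SCARNA members. Among the 176 members with a single locus, 167 lay inside a host gene, 133 of them in a protein-coding one, and 74 lay within an annotated exon of a host transcript, where reads of the snoRNA and of the host row cannot be told apart by position.

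The libraries held between 131423 gencode counts (CMm-EV 1) and 1908539 (hiPSC-EV 3), and between 2061 and 14653 counts of members. A single library detected between 60 and 198 of the 220 members, 19 members had a count in all 12 libraries, 95 in at least 6 and 67 in at most 3, and the median member summed to 74.2 counts. Detection did not follow depth alone. Among hiPSC-EV, libraries 3 and 2, with 198 and 177 members, held 1908539 and 832603 gencode counts, and library 1, at 307432, detected 73. CPC-EV 2, deeper at about 1314250 counts, detected fewer members than hiPSC-EV 2, and CMm-EV 3, at 293752 counts, detected 90. Where a member was listed at 0, a level of 3 counts remained possible, or 1.57 CPM in hiPSC-EV 3 and, at the other end, 22.8 CPM in CMm-EV 1, without TMM scaling (trimmed mean of M-values).

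**Figure D1:**
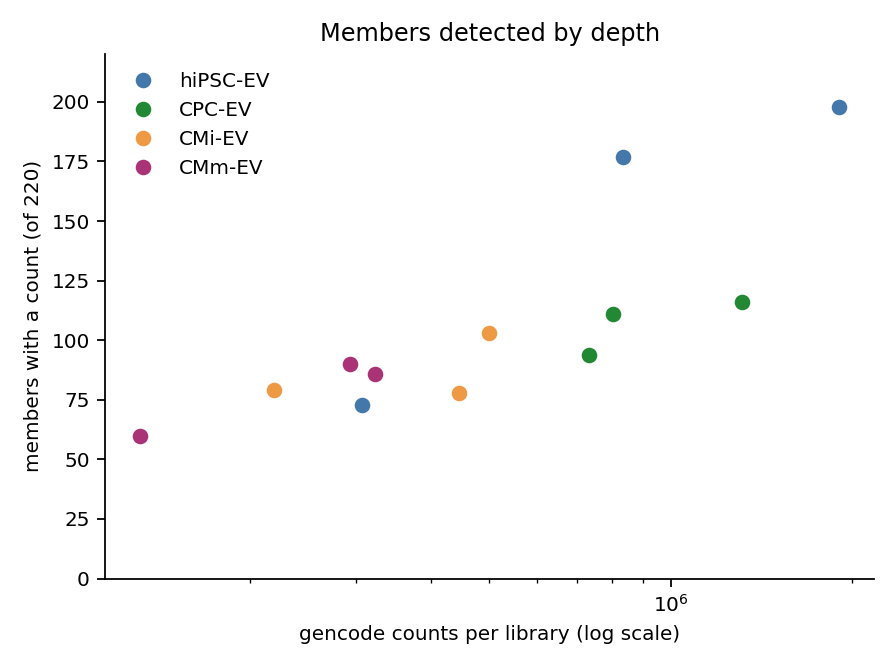
Number of the 220 members with at least 1 count (vertical axis) against gencode counts per library (horizontal axis, log scale), 1 point per library, coloured by EV group. The hiPSC-EV libraries span 73 to 198 members and the CMm-EV libraries 60 to 90.

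Members made up about 1% to 2% of the gencode counts. Their share was 0.792%, 1.41% and 0.768% in the hiPSC-EV libraries, 0.896%, 0.875% and 1.10% in the CPC-EV libraries, 1.84%, 1.19% and 1.62% in CMi-EV, and 1.57%, 2.00% and 1.45% in CMm-EV. Every CMi-EV and CMm-EV library lay above every CPC-EV library, and every CMm-EV library also above every hiPSC-EV library, while hiPSC-EV 2 overlapped CMi-EV. The group means were 0.989% ± 0.363 at the hiPSC stage, 0.958% ± 0.126 for CPC-EV, 1.55% ± 0.328 at the CMi stage and 1.67% ± 0.290 for CMm-EV (SD, n = 3 each). The counting error was small beside the spread between cultures, with exact (Clopper-Pearson) 95% intervals of 0.761% to 0.824% in hiPSC-EV 1 and 1.95% to 2.05% in CMm-EV 2. Intervals and limits cover counting error only, since PCR reads without molecular identifiers are not independent molecules. These shares are a description of a class chosen with results known, and no test was made of them. The order depended on the denominator. As a share of the library totals behind the RPM values of the authors (reads scaled to library totals), members were at 0.191% ± 0.0588 in hiPSC-EV, 0.189% ± 0.0286 in the CPC-EV libraries, 0.199% ± 0.0371 in CMi-EV and 0.0949% ± 0.0297 in CMm-EV (SD, n = 3 each), so that the CMm-EV libraries, at 0.0712% to 0.128%, lay below all 9 others. Rows of the biotype misc_RNA made up most gencode counts and moved with the groups too, at 70.5% to 79.3% in hiPSC-EV, 62.3% to 67.6% in the CPC-EV libraries, 63.9% to 73.5% in CMi-EV and 53.1% to 63.1% in CMm-EV, and their part in these shares was not tested.

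**Figure D2:**
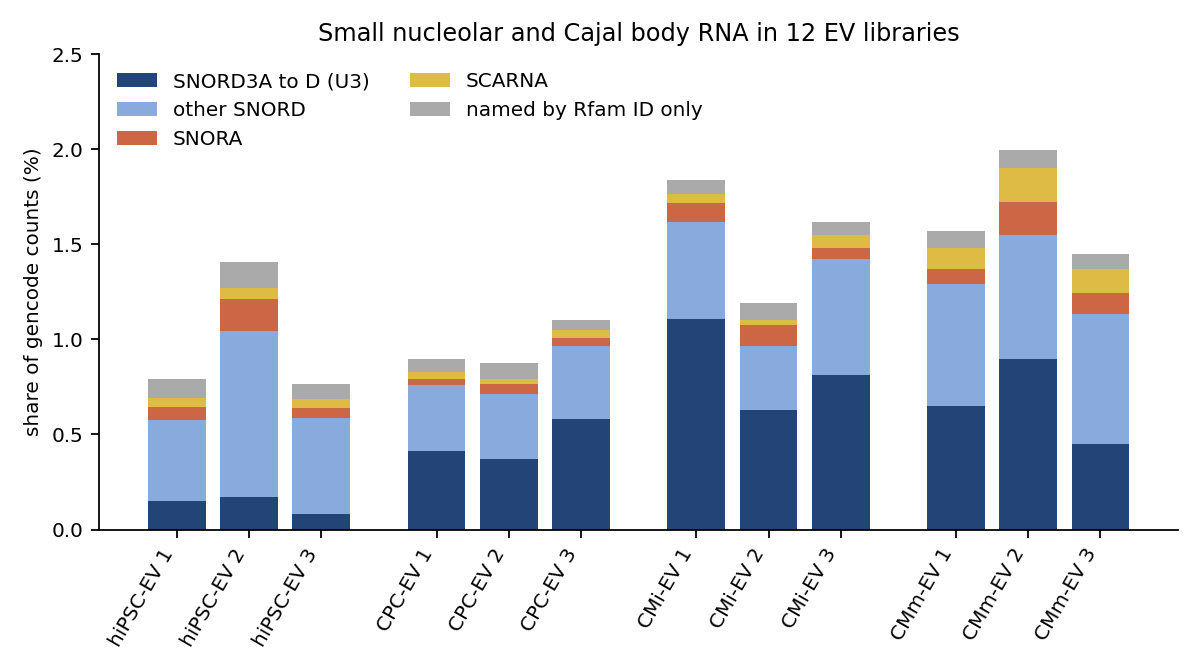
Share of gencode counts (%, vertical axis) taken by U3 (SNORD3A to D), other SNORD, SNORA, SCARNA and members named by Rfam-style identifier, stacked for each of the 12 libraries. The U3 block is at most 0.173% in hiPSC-EV and at least 0.370% in the other libraries.

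Over the counts of all 12 libraries, the U3 rows SNORD3B, SNORD3A and SNORD3C were the leading 3 members and held 31.6%, and the 20 leading members 72.1%. In hiPSC-EV they did not lead throughout, since SNORD93 held 16.8% of member counts in hiPSC-EV 3, where SNORD3A to D held 10.6%, and SNORD82 held 12.9% in hiPSC-EV 1, where SNORD3B held 7.87%. Over the first 217 bases, SNORD3C and both copies merged in the SNORD3B row are identical to SNORD3A at 216 positions and the SNORD3D copies at 214, so reads are shared between these rows and they were also summed. SNORD3A to D had 465, 1442 and 1557 counts in hiPSC-EV, 3319, 4869 and 4263 in the CPC-EV libraries, 4927, 3153 and 1782 in CMi-EV, and 852, 2882 and 1328 in CMm-EV. Within the class, independent of any scaling, U3 took 19.1%, 12.3% and 10.6% of member counts in hiPSC-EV, against 46.2%, 42.3% and 52.7% in the CPC-EV libraries, 60.2%, 53.0% and 50.2% in CMi-EV, and 41.4%, 44.8% and 31.3% in CMm-EV. The hiPSC-EV libraries lay below all 9 others, and a share of this kind rises when the other members fall as well as when U3 rises. Of gencode counts, U3 took 0.135% ± 0.0478 in hiPSC-EV, 0.455% ± 0.111 in the CPC-EV libraries, 0.850% ± 0.239 in CMi-EV and 0.665% ± 0.221 in CMm-EV (SD, n = 3 each). Of library totals, U3 took 0.0162% to 0.0318% in hiPSC-EV, 0.0689% to 0.116% in the CPC-EV libraries, 0.0825% to 0.143% in CMi-EV and 0.0223% to 0.0531% in CMm-EV, so that CMm-EV then overlapped hiPSC-EV. Without U3, the other members stood at 0.854% ± 0.331, 0.503% ± 0.0196, 0.699% ± 0.126 and 1.01% ± 0.0928 of gencode counts in that order of groups.

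After TMM scaling, the summed U3 level was 1582, 3451 and 2787 CPM in hiPSC-EV, 3770, 3513 and 4930 in the CPC-EV libraries, 8311, 7146 and 5706 in CMi-EV, and 2787, 6445 and 4656 in CMm-EV. The CPC-EV libraries lay above the hiPSC-EV libraries and below the CMi-EV libraries, and CMm-EV overlapped every other group. With TMM and the minimum of 12 counts, none of the steps of summed U3 passed the test of edgeR. The log2 fold change of summed U3 was 0.66 ± 0.52 (SE) from hiPSC-EV to CPC-EV with an adjusted p of 0.588, 0.77 ± 0.38 from CPC-EV to CMi-EV with an adjusted p of 0.354, and -0.65 ± 0.59 from CMi-EV to CMm-EV with an adjusted p of 0.460. The first value depended on the scaling. With library size only it was 1.75 and passed at an adjusted p of 7.26e-06, and with TMM taken from rows with at least 20 counts in every library, a setting added after the data were seen, it was 1.11 with an adjusted p of 0.243. The median log2 fold change over all rows moved from -0.10 with TMM to 1.11 with library size only between CPC-EV and hiPSC-EV, and relative to that median U3 stood at 0.76 and 0.64. From CPC-EV to CMi-EV, library size only gave 0.90 with an adjusted p of 0.0278, under the fold a call needed. On rows with at least 5 CPM in each library of a group, SNORD3A, SNORD3B and SNORD3C were each called higher in that step with TMM, at log2 fold changes of 1.15, 1.16 and 1.14 and adjusted p of 0.0369, 0.0280 and 0.0399. That filter keeps rows through any group where they are high, so the set of rows behind the adjustment is not blind to the groups. The sign was the same under these 3 scalings in each of the 3 comparisons.

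**Figure D3:**
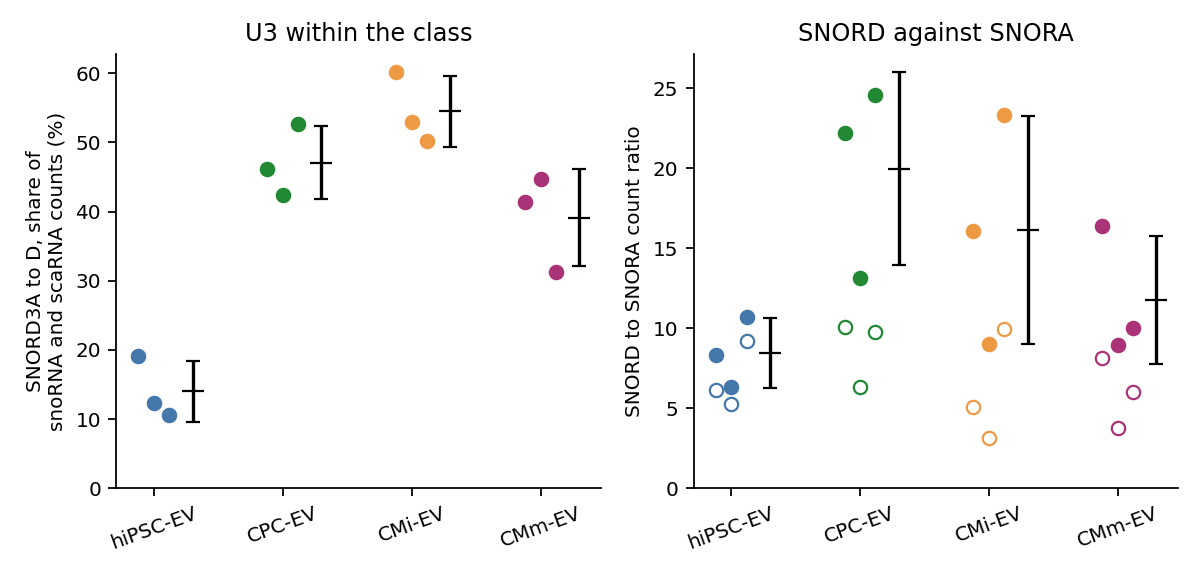
Left, share of member counts (%) taken by SNORD3A to D in each library. Right, ratio of SNORD to SNORA counts, with all SNORD members (filled) and without SNORD3A to D (open). Points are libraries, and bars show mean and SD of the filled points of each group (n = 3). The hiPSC-EV libraries lie lowest on the left, and the filled points of CPC-EV, CMi-EV and CMm-EV spread from 8.94 to 24.6 on the right.

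SNORD fragments outnumbered SNORA fragments in every library. SNORD members held 80.6% of member counts, SNORA members 6.99%, SCARNA members 4.76% and members with an Rfam-style identifier 7.66%. The ratio of SNORD to SNORA counts was 8.33, 6.35 and 10.7 in hiPSC-EV, 22.2, 13.2 and 24.6 in the CPC-EV libraries, 16.1, 9.03 and 23.3 in CMi-EV, and 16.4, 8.94 and 10.0 in CMm-EV. Every CPC-EV library lay above every hiPSC-EV library, while CMi-EV and CMm-EV overlapped both. Without SNORD3A to D the ratio was 6.88 ± 2.05 in hiPSC-EV, 8.74 ± 2.09 in the CPC-EV libraries, 6.06 ± 3.52 in CMi-EV and 5.99 ± 2.19 in CMm-EV (SD, n = 3 each), and all 4 groups then overlapped. SNORA members made up 0.0341% to 0.0542% of gencode counts in CPC-EV, below each of the other 9 libraries, of which the lowest, hiPSC-EV 3, stood at 0.0547%. Of library totals, they made up 0.00704% to 0.0101% in CPC-EV, and CMi-EV 3 and CMm-EV 1, at 0.00618% and 0.00646%, lay lower, as did CMm-EV 3 at 0.00557%. SCARNA members made up 0.109%, 0.179% and 0.125% of gencode counts in CMm-EV and at most 0.0655% in any other library, with no overlap. Of library totals the order was another: SCARNA members made up 0.00615% to 0.00890% in CMm-EV, below the hiPSC-EV libraries at 0.00981% to 0.0113% and overlapping the other groups. Mitochondrially encoded RNA moved with the SCARNA share of gencode counts, at 0.680% to 1.61% of gencode counts in CMm-EV and at most 0.365% elsewhere, and its part in it was not tested.

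Between CPC-EV and hiPSC-EV, 13 members were lower in CPC-EV and 0 were higher, of 215 tested. Of these 13, 3 reached the minimum of 12 counts only through hiPSC-EV, as given below for each. A call needed an adjusted p of at most 0.05 and an absolute log2 fold change of 1 or more in the quasi-likelihood test of edgeR, with Benjamini-Hochberg adjustment over all 16435 rows. Over all rows, 0.566% were called lower and 0.146% higher, and 51 members had an unadjusted p of at most 0.05, all 51 lower in CPC-EV, which is 23.7% of those tested, beside 11.5% of all rows (1893), of which 1571 were lower and 322 higher. The called members were 9 SNORD, 3 of 59 tested SNORA and 1 of 14 tested SCARNA. In the sum over 3 libraries, 58 of the 215 members had no count in 1 of both groups, and the members' median log2 fold change was -1.90, or -1.80 with such members set at their bound against 3 counts, beside -0.10 and -0.09 over all rows. SNORA75B, SNORD127 and SNORD101, among others, were counted only in hiPSC-EV and passed the minimum through it, so they had to be lower. The 51, the 23.7% and the median include such members, and are a description and no support for a direction. In bulk EV preparations, fewer EV carrying an RNA and less of it per EV cannot be told apart.

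SNORD82, hosted by NCL, had the smallest adjusted p. Its counts were 315, 1123 and 971 in hiPSC-EV, 105, 7 and 78 in the CPC-EV libraries, 59, 99 and 31 in CMi-EV, and 15, 202 and 17 in CMm-EV, which is 1072, 2688 and 1738 CPM in hiPSC-EV against 119, 5.05 and 90.2 CPM in CPC-EV. Each hiPSC-EV library lay above all 9 libraries of the later stages, where the highest, CMm-EV 2, stood at 452 CPM. The log2 fold change in CPC-EV was -4.63 ± 0.65 (SE), 24.8-fold lower, with an adjusted p of 1.04e-06, and -3.57 with an adjusted p of 6.73e-06 with library size only. The call was lost without hiPSC-EV 1, at a log2 fold change of -4.92 and an adjusted p of 0.113, and with DESeq2, filterByExpr or the dispersion of 12 libraries, at adjusted p of 0.105, 0.103 and 0.224. As a share of member counts SNORD82 went from 12.9%, 9.58% and 6.63% in hiPSC-EV to at most 3.14% in every later library. The protein-coding row of its host NCL stood at 88.5, 335 and 227 CPM in hiPSC-EV and 395, 300 and 357 CPM in CPC-EV, where the groups overlapped, with a log2 fold change of 0.71 ± 0.83 and an adjusted p of 0.835. The difference between the fold changes of SNORD82 and NCL was not tested.

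SNORD93 was the most abundant member outside U3. Its counts were 136, 1137 and 2457 in hiPSC-EV, 319, 719 and 409 in the CPC-EV libraries, 82, 37 and 84 in CMi-EV, and 0, 27 and 18 in CMm-EV. In CPM these were 463, 2721 and 4398, then 362, 519 and 473, then 138, 83.9 and 269, and last 0, 60.4 and 63.1, so that hiPSC-EV and CPC-EV overlapped, CMi-EV lay below CPC-EV and CMm-EV below CMi-EV. The log2 fold change in CPC-EV was -2.50 ± 0.59 with an adjusted p of 0.0161. It shrank to -1.04 with library size only, with an adjusted p of 0.320, and with hiPSC-EV 1 left out the call remained while it was lost without any other library of the pair. Of member counts, SNORD93 took 5.58% to 16.8% in hiPSC-EV, 4.44% to 6.25% in the CPC-EV libraries, 0.622% to 2.37% in CMi-EV and at most 0.424% in CMm-EV.

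SNORD116, whose row sums the tandem copies of the imprinted locus on chromosome 15 that is deleted in Prader-Willi syndrome, stood at 674, 1412 and 1847 CPM in hiPSC-EV and at 152, 184 and 118 CPM in CPC-EV, without overlap. It was 170 and 189 CPM in CMi-EV 2 and CMi-EV 1 and 96.1 CPM in CMi-EV 3, and 245, 503 and 505 CPM in CMm-EV. The log2 fold change in CPC-EV was -3.12 ± 0.68 with an adjusted p of 0.00853, and -1.92 with an adjusted p of 0.172 with library size only. The SNHG14 row, which is the host transcript of that locus, stood at 276, 567 and 886 CPM in hiPSC-EV and 95.4, 134 and 68.3 CPM in CPC-EV. It was not called by edgeR, with a log2 fold change of -2.55 ± 0.80 and an adjusted p of 0.182.

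SNORD26 and SNORD33, guides in SNHG1 and in the ribosomal protein gene RPL13A, were also called lower. SNORD26 stood at 228, 1070 and 849 CPM in hiPSC-EV and 68.2, 87.3 and 85.6 CPM in CPC-EV, a log2 fold change of -3.15 ± 0.77 with an adjusted p of 0.0330. SNORD33 stood at 191, 1115 and 523 CPM in hiPSC-EV and 64.7, 105 and 38.2 CPM in CPC-EV, a log2 fold change of -3.14 ± 0.80 with an adjusted p of 0.0447. Neither pair of groups overlapped, and both members were detected in all 12 libraries. The SNHG1 row, within whose exons SNORD26 lies, was not called, with a log2 fold change of -1.22 ± 0.53 and an adjusted p of 0.404. SNORD60 fell from 61.2, 354 and 286 CPM to 7.95, 16.6 and 0 CPM, a log2 fold change of -4.83 ± 1.05 with an adjusted p of 0.0159. SCARNA3, a Cajal body guide, fell from 85.1, 579 and 183 CPM to 21.6, 29.6 and 0 CPM, a log2 fold change of -4.04 ± 0.98 with an adjusted p of 0.0386.

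A further 6 members were called with no count in any CPC-EV library, and their fold changes are bounds against 3 counts over that group. SNORA75, SNORD12B and SNORD111B, with 9, 9 and 8 counts outside hiPSC-EV, passed the minimum of 12 counts only through the group where they are high and had to differ, so their values are a description and their p is no support. SNORA75 had 41, 52 and 32 counts in hiPSC-EV, 0 in every CPC-EV and CMi-EV library, and 9 in CMm-EV 2 alone of the CMm-EV libraries, and was at least 103-fold lower in CPC-EV with an adjusted p of 0.00134. SNORA50A had 25, 71 and 30 counts in hiPSC-EV, no count in CPC-EV, 1 in CMi-EV 3 and 60 and 20 in CMm-EV 2 and CMm-EV 3, and was at least 104-fold lower in CPC-EV with an adjusted p of 0.00161. SNORD12B was at least 92.2-fold lower with an adjusted p of 0.00936, from 11, 32 and 69 counts in hiPSC-EV. For SNORD111B the bound was at least 58.4-fold lower (adjusted p of 0.0447), for SNORA58B at least 59.2-fold (0.0453) and for SNORD71 at least 66.7-fold (0.0424). SNORD71 was also at 0 in hiPSC-EV 1 and had 61 and 53 counts in CMi-EV 1 and CMi-EV 2, so its hiPSC-EV and CPC-EV ranges overlapped. SNORD26, SNORD33, SNORD71, SNORD93 and SNORD116 fall outside the 8 largest non-overlapping changes and were named because they were called.

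**Figure D4:**
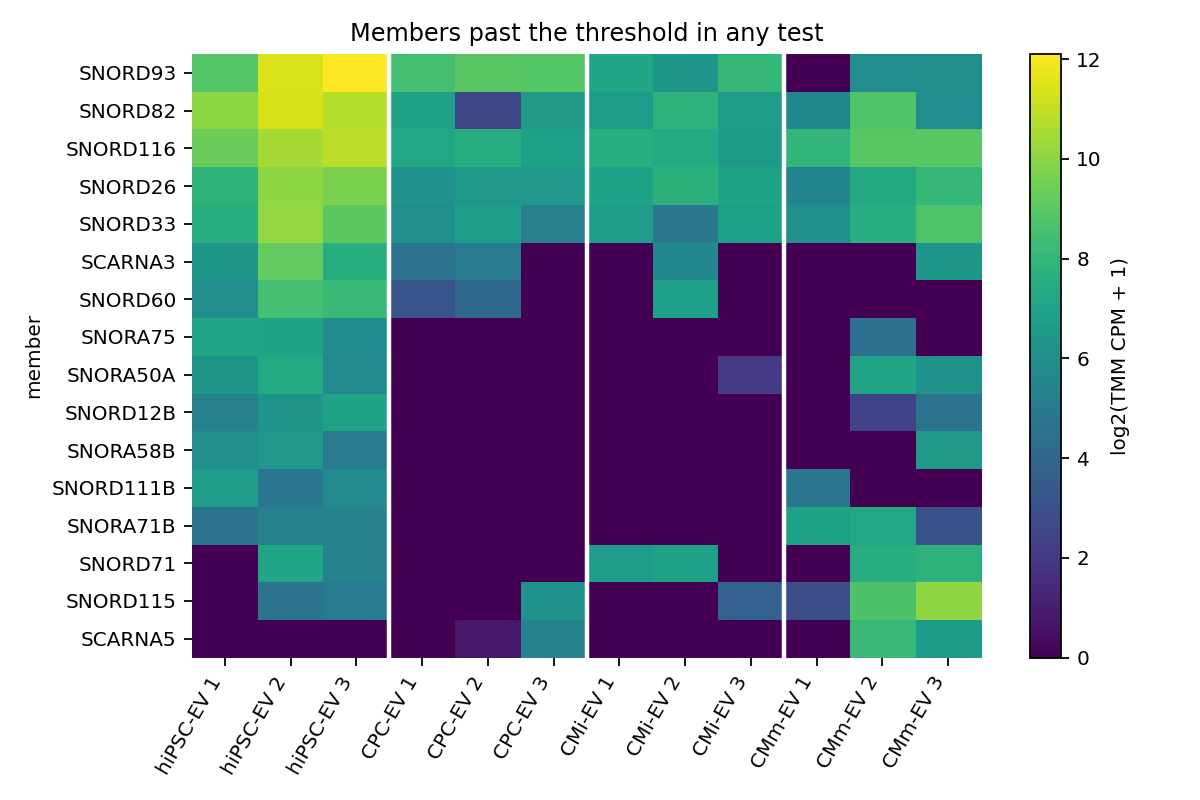
Heat map of log2(TMM CPM + 1) for the 16 members past the threshold in any of the 4 tests (rows, ordered by their hiPSC-EV mean) in the 12 libraries (columns, white lines between EV groups). Darkest cells are libraries with no count. The upper 13 rows are on average brighter in hiPSC-EV than in CPC-EV, while SNORD115 and SCARNA5 are brightest in CMm-EV.

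How many members were called depended on the libraries and the scaling. Over 17 alternatives SNORD82 remained called in 13, SNORA75 and SNORA50A in 12 each, SNORD12B in 7, and each of the other 9 in at most 6, with SNORD71 in 0 of the 15 in which it was tested. For SNORA75, SNORD12B and SNORD111B, which passed the minimum only through hiPSC-EV, these tallies are a description and no support. Without 1 library, between 1 (without hiPSC-EV 2) and 5 (without CPC-EV 2) members were called, with 3, 3, 4 and 4 without hiPSC-EV 1, hiPSC-EV 3, CPC-EV 1 and CPC-EV 3. With library size only, SNORD82, SNORA75 and SNORA50A were called lower and SNORD3B was called higher at a log2 fold change of 1.78, with an adjusted p of 0.00531. The direction of the calls over all rows turned with the scaling. TMM gave 24 rows higher and 93 lower in CPC-EV, library size only 86 and 36, and library totals 90 and 38. Relative to the median of all rows, the members' median was -1.80 with TMM and -1.71 with library size only. TMM factors over the 12 libraries ranged from 0.293 in hiPSC-EV 3, the deepest library, to 2.33 in CMm-EV 1, the shallowest, and the part of depth in these values was not tested.

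**Figure D5:**
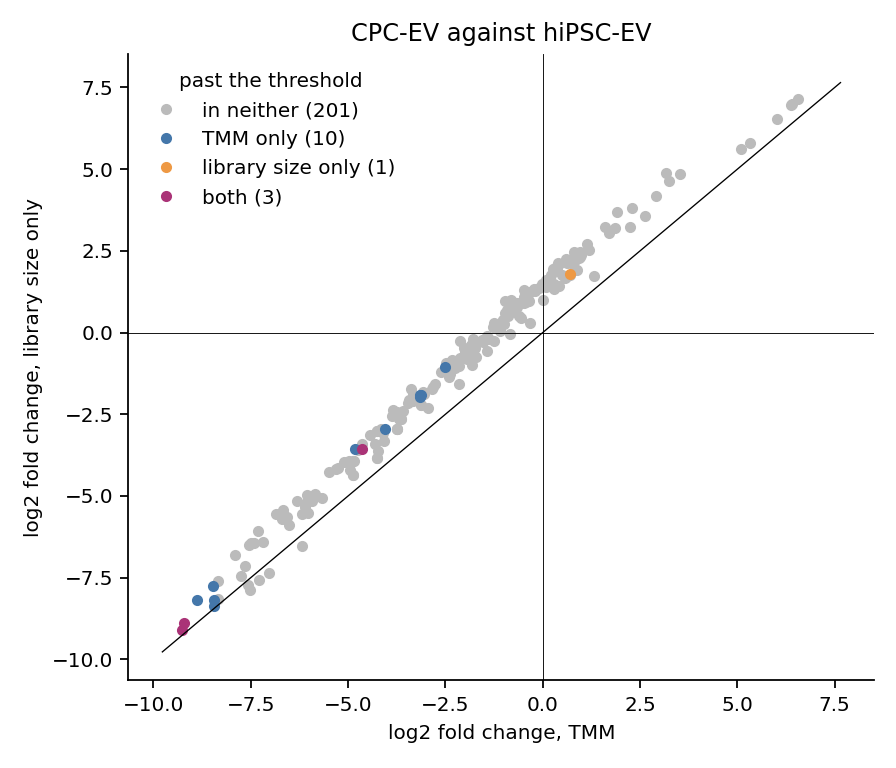
Log2 fold change of each of the 215 tested members in CPC-EV against hiPSC-EV with TMM (horizontal axis) and with library size only (vertical axis). Colours mark members past the threshold in neither, 1 or both fits, the diagonal line marks equal values, and nearly all points lie above it. The 3 members called in both are SNORD82, SNORA75 and SNORA50A.

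From CPC-EV to CMi-EV, 0 of 189 tested members were called by edgeR, against 0.109% of all 15582 rows called higher and 0.186% called lower. Unadjusted, 14 members had a p of at most 0.05, 8 higher and 6 lower in CMi-EV, which is 7.41% of those tested beside 8.07% of all rows, and DESeq2 called 2, SNORA79 and SNORA28, which were named after their values were seen. Both rest on 1 library, with 61 counts each in CMi-EV 1 and 0 in the other CMi-EV and all CPC-EV libraries. SNORD71 went from 0 counts in all CPC-EV libraries to 61, 53 and 0 in CMi-EV, with an adjusted p of 0.165, and was called at an adjusted p of 0.0264 without CMi-EV 3. The members' median log2 fold change was 0.05, or 0.45 with members at 0 in 1 group set at their bound, beside -2.58 and -1.002 over all rows, where 8888 of 15582 rows had no count in 1 of both groups. SNORA members had a fitted median of 1.11, or 1.504 with bounds, and SNORD members of -0.10, or 0.11 with bounds, so that the sign for SNORD turned.

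From CMi-EV to CMm-EV, 0 of 176 tested members were called by edgeR and 0 by DESeq2, 5 had an unadjusted p of at most 0.05 (2.84%, beside 2.38% of all rows), and the shares of all 11212 rows called were 0.00892% higher and 0.0178% lower. The members' median log2 fold change was 0.18, beside -1.11 over all rows. SNORD115, from the same imprinted locus as SNORD116 and known for its expression in brain, came closest. It stood at 0, 0 and 12.8 CPM in CMi-EV and at 6.54, 427 and 1087 CPM in CMm-EV, where CMm-EV 1 overlapped CMi-EV 3, with a log2 fold change of 6.93 ± 1.38 and an adjusted p of 0.0777. It passed with an adjusted p of 0.00233 without CMi-EV 3 and of 0.00273 without CMm-EV 1. SNORD115 was low in the other groups too, at 0, 23.9 and 32.2 CPM in hiPSC-EV and 0, 0 and 71.7 CPM in CPC-EV. SNORD116 had a log2 fold change of 1.43 ± 1.25 with an adjusted p of 0.443, although its CMm-EV libraries lay above its CMi-EV libraries.

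Over the 4 EV groups, the F-test of edgeR called 8 of 220 members, against 1.26% of all 17430 rows, and 63 members (28.6%) had an unadjusted p of at most 0.05, against 23.7% of all rows. The called members were SNORD93 (adjusted p of 4.21e-05), SNORD82 (0.00286), SNORD115 (0.00507), SNORD60 (0.0249), SCARNA5 (0.0258), SNORA75 (0.0263), SNORA71B (0.0329) and SNORA50A (0.0355). This test uses the same libraries as the pairwise tests and is not separate support for them. SNORA75, and RF00592 named below, passed the minimum only through hiPSC-EV and had to differ, so their p is no support. SCARNA5 had no count in the 6 hiPSC-EV and CMi-EV libraries, 0.721 and 40.5 CPM in CPC-EV 2 and CPC-EV 3, and 0, 286 and 94.7 CPM in CMm-EV. SNORA71B, hosted by SNHG17, stood at 23.8, 38.3 and 39.4 CPM in hiPSC-EV, at 0 in all CPC-EV and CMi-EV libraries and at 127, 152 and 7.01 CPM in CMm-EV. SNORD71 and RF00592, next in order, had adjusted p of 0.0692 and 0.0715, and RF00592 was counted only in hiPSC-EV, with 20, 28 and 18 counts. DESeq2 called 0 members in this comparison, and SNORD93 lost its call without hiPSC-EV 3, with an adjusted p of 0.117. Over the alternatives that gave a value, the call was lost in 2 for SNORD93, 4 for SNORD115, 6 for SNORD82, 7 for SCARNA5, 11 for SNORA75, 12 each for SNORD60 and SNORA71B and 14 for SNORA50A, of 20 to 22.

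With TMM and the minimum of 12 counts, members that act in ribosomal RNA processing were not called, while U3 rows were called with library size only or the 5 CPM filter, as given above. Of 19 members in that role, counting the SNORD3 rows, 0 of 18 tested were called in each of the pairwise comparisons of edgeR, and 2, 1 and 0 had an unadjusted p of at most 0.05 in the order of the stages, beside 11.5%, 8.07% and 2.38% of all rows. SNORD118 (U8) had 53.7, 205 and 243 counts in hiPSC-EV, 152, 316 and 105 in the CPC-EV libraries, 176, 129 and 30.9 in CMi-EV and 16.5, 101 and 74.3 in CMm-EV, and the 4 groups overlapped in CPM, with an adjusted p of 0.839 in the F-test. That holds for the SNORD118 row alone. Roles were assigned by symbol, so the 27 members with an Rfam-style identifier were left out of the 19. They were not matched to genes and could hold further reads of U8, U3 or other RNA in that role. SNORA73B (U17) was seen in 6 libraries and in no CMm-EV library. Of the 6 members hosted by SNHG1, SNORD26 alone was called, and of the 6 members of the imprinted chromosome 15 locus, SNORD116 in a pairwise test and SNORD115 in the F-test. Beside these, 0.566% of all rows were called lower between CPC-EV and hiPSC-EV, and 1.26% were called in the F-test. By symbol, none of the listed GAS5-hosted snoRNA was among the members, although the 27 members with an Rfam-style identifier were not checked, and the retained-intron row of GAS5 held 5809 counts.

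Other abundant members had values that did not pass. SNORA3B, the highest SNORA, stood at 91.9, 1378 and 483 CPM in hiPSC-EV, 47.7, 175 and 205 in the CPC-EV libraries, 223, 329 and 0 in CMi-EV, and 85.0, 235 and 361 in CMm-EV. SNORA33 was at 0 in 5 libraries and reached 248 CPM in CMm-EV 2. SNORD100, in the same host as SNORA33, RPS12, stood at 191, 955 and 648 CPM in hiPSC-EV and at 140, 64.9 and 56.7 CPM in CPC-EV without overlap, with an adjusted p of 0.119. SCARNA15 stood highest in hiPSC-EV 3, at 947 CPM, and next in CMm-EV 2 and CMm-EV 3, at 593 and 508 CPM, and SCARNA11 stood at 258, 248 and 414 CPM in CMm-EV, above the CMi-EV libraries at 0, 83.9 and 119 CPM, with an adjusted p of 0.392. RF00096, which the table names only by its identifier, stood at 806, 2029 and 2082 CPM in hiPSC-EV and 378, 522 and 174 CPM in CPC-EV, with an adjusted p of 0.108.

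Of the transcripts of proteins that build and hold snoRNA, 0 were called in any pairwise comparison. Tested were 4 of 4 box C/D core proteins, 3 of 4 box H/ACA core proteins, 6 of 10 assembly factors and 6 of 6 proteins of nucleolus and Cajal body between CPC-EV and hiPSC-EV, of which 0, 0, 1 and 1 had an unadjusted p of at most 0.05, beside 11.5% of all rows. The assembly factor was ZNHIT6, higher in CPC-EV at 46.6, 62.0 and 146 CPM against 0, 0 and 16.1 CPM in hiPSC-EV, with an adjusted p of 0.404. The other was NOLC1, lower in CPC-EV at 0 in all libraries, against 0, 55.0 and 46.5 CPM, with an adjusted p of 0.249. Both passed the minimum through the group where they are high, so their p is no support. Fragments of FBL, the methyltransferase fibrillarin, stood at 133, 40.7 and 82.3 CPM in hiPSC-EV and 1.14, 30.3 and 31.2 CPM in CPC-EV, and were listed at 0 in 5 of the 6 CMi-EV and CMm-EV libraries. Of 40 listed host genes, 35 were tested and 0 were called between CPC-EV and hiPSC-EV, where 7 had an unadjusted p of at most 0.05, all 7 lower in CPC-EV, which is 20% of them beside the 11.5% of all rows. In the F-test 2 of the 35 were called, beside 1.26% of all rows, SNHG8 with an adjusted p of 0.0245 and SNHG16 with 0.0479, while 20% of host genes and 23.7% of all rows had an unadjusted p of at most 0.05. SNHG8 stood at 149.7, 114.9 and 98.45 CPM in hiPSC-EV, 106, 46.2 and 0 CPM in CPC-EV and 0 in all 6 later libraries. SNHG16 stood at 88.5, 83.8 and 77.0 CPM in hiPSC-EV, 59.1, 150.0 and 105 CPM in CPC-EV, and had a count in 1 of the 6 later libraries, at 2.27 CPM in CMi-EV 2.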

How the data were processed

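Small RNA libraries of 12 EV preparations were sequenced by the authors, who per the paper ran exceRpt 4.6.2 on hg38. The expected counts deposited by the authors for gencode rows are not all whole, since reads that match several rows are split: 48.19% of the 1301 values above 0 of members were not whole. They were rounded for tests. The RPM deposited by the authors gave library totals only. The table cuts gene symbols at a hyphen, so rows such as SNORD116 and SNORD3B merge numbered copies. Which gencode release the authors used is not given in the sources used here.

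The libraries of a pair (6), and all 12 for an F-test, were fitted with glmQLFit of edgeR 4.0.16 (R 4.3.3) on rows with at least 12 counts over the 12 libraries and any count in those fitted, with TMM, two-sided, and Benjamini-Hochberg adjustment over all rows. A call needed an FDR of 0.05 and, pairwise, an absolute log2 fold change of 1. CPM used TMM over 12 libraries. Fold changes against a group at 0 are bounds at 3 counts over the group. Standard errors come from the weighted information of the fit. The code was tested on simulated data. Named were the 12 members of highest mean CPM with the 4 highest SNORA and SCARNA, up to 8 called members each way per comparison without overlap, the 10 with the smallest F-test p, and called members of role and pathway lists. Members and lists were chosen with earlier results of these data known. Alternatives were other scaling, filters, dispersion, DESeq2 1.42.0, a replicate block and leaving out each library. Replicate libraries differed beyond counting noise, with chi-square per degree of freedom of 11.1 to 25.7 over members.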

Additional observations from a re-analysis of the deposited data

Results flagged for a closer look

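Reads of 4 miRNA whose genes overlap a snoRNA gene were counted in the miRNA table, outside the rows described here, above the limit that a count of 0 allows. miR-664a, whose gene overlaps SNORA36B, had 2529 counts over the 12 libraries, with 8 to 283 in hiPSC-EV, 142 to 265 in CPC-EV, 49 to 243 in CMi-EV and 198 to 496 in CMm-EV, while SNORA36B had 0 counts in the gencode table. miR-664b, whose gene overlaps SNORA36A, had 147 counts, against 23 for SNORA36A. miR-1248, in SNORA81, had 7 counts against 20, and miR-3651, in SNORA84, had 30 against 16. With 3 libraries in each group, no test for a library standing apart was run.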

How the results depend on the processing

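For CPC-EV against hiPSC-EV, where 13 members were called, 8 were called with DESeq2 size factors, 4 with library size only, 4 with the library totals behind the RPM, 6 without a filter on rows, 6 with TMM from dense rows (at least 20 counts in every library, added after the data were seen), 6 with DESeq2, 0 with filterByExpr, 0 with the dispersion of 12 libraries and 1 with a replicate block, and leaving out each library gave 1 to 5. The number was 15 with at least 5 CPM in each library of a group, 13 with the SNORD3 rows summed and 11 without misc_RNA rows, the last 2 added after the data were seen. Of all rows, 117 were called in the main fit. The settings from DESeq2 size factors to replicate block called 98, 122, 128, 62, 102, 78, 0, 15 and 25 rows in that order. The 5 CPM filter called 15 of 67 tested members beside 337 of 3072 rows. That filter keeps a row through any group where it is high, which favours a difference. Its counts, here and below, are a description and no support. For CMi-EV against CPC-EV, where 0 were called, 8 of 56 tested members were called with the 5 CPM filter, 5 higher and 3 lower. In that fit 731 of 2378 rows were called, 75 higher and 656 lower. DESeq2 called 2 members beside 20 of all rows, and leaving out each library gave 0 to 1 members. For CMm-EV against CMi-EV, also 0, the 5 CPM filter called 3 of 51 tested members beside 112 of 917 rows. There, leaving out each library gave 0 to 1. Over the 4 EV groups, where 8 were called, 5 were called with library size only, 3 with library totals, 5 without a filter, 17 with the 5 CPM filter, 1 with filterByExpr, 5 with TMM from dense rows, 0 with DESeq2, 4 with a replicate block, 4 without misc_RNA rows and 1 to 10 leaving out each library. In the order from library size only to misc_RNA, 241, 355, 176, 1137, 89, 292, 23, 119 and 139 of all rows were called. The 5 CPM filter thus called 17 of 79 tested members beside 1137 of 3402 rows. Between samples of the same replicate number, correlations of deviations were -0.03 to 0.02. Over rows this sparse, such values cannot tell whether the numbers pair the samples. A replicate block changed no other count. Why the numbers of calls differed between settings was not tested. No log2 fold change of the 13 called members, of SNORD3A to C or of SNORD115 from CMi-EV to CMm-EV changed sign under the alternatives in which it was tested.

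In the order of the stages from hiPSC-EV to CMm-EV, the share of members was 0.216%, 0.228%, 0.227% and 0.109% of the counts of 5 RNA classes and 0.191%, 0.189%, 0.199% and 0.0949% of library totals. Without the leading member, SNORD3B, the share of gencode counts was 0.768% in CPC-EV and 1.19% in CMi-EV, and without SNORD3A to D it was 0.503% in the CPC-EV libraries, 0.699% in CMi-EV and 1.01% in CMm-EV. Leaving out each library gave 0.780% to 1.10%, 0.886% to 1.00%, 1.41% to 1.73% and 1.51% to 1.78% in the order of groups. The SNORD to SNORA ratio was 10.8 in hiPSC-EV and 27.6 in CPC-EV without the leading SNORD and SNORA, 8.74 in the CPC-EV libraries, 6.06 in CMi-EV and 5.99 in CMm-EV without SNORD3A to D, and 2.39, 4.57, 4.28 and 3.75 as numbers of rows with a count. Leaving out each library gave 7.34 to 9.51 in hiPSC-EV, 17.7 to 23.4 in CPC-EV, at most 19.7 in CMi-EV and 9.48 to 13.2 in CMm-EV. The other alternatives moved these values by less than 1 SD. Depth is 1 limit: 67 members had a count in at most 3 libraries, and 0 in CMm-EV 1 allows up to 22.8 CPM.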
